A study of Mus musculus with 11 samples.

Results

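Phox2a, Hand2, Gata3, Isl1, Stmn2, Tubb3, Snap25 and Syt1, 8 genes of the sympathoadrenal lineage and of neurons, were followed in cells sorted from fetal mouse adrenal glands. They were selected by name, and every array probe whose RefSeq accession belonged to one of them was used, which gave 13 probes for 8 of the 17427 named genes on the array. Adrenal glands of E17.5-18.5 embryos (days of gestation) had been dissociated, cells positive for enhanced green fluorescent protein (eGFP) had been sorted by flow cytometry, and Cy3-labelled cRNA of 1 mouse had been hybridised to each of 11 single-colour Agilent arrays. The mice were Star-/- (4 arrays, all labelled male) or wild-type, Star+/+ (7 arrays, 3 labelled male and 4 female), and cells of both genotypes had been sorted on eGFP. The sources used here do not give the promoter that drove eGFP. The protein made from Star, the steroidogenic acute regulatory protein, brings cholesterol to the mitochondrial enzyme that starts steroid synthesis.

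Chromaffin cells of the adrenal medulla and sympathetic neurons descend from the neural crest, apart from the mesodermal cells of the cortex. Transcription factors including Phox2a, Hand2, Gata3 and Isl1 act in a shared network that installs catecholamine synthesis, through tyrosine hydroxylase (Th) and dopamine beta-hydroxylase (Dbh), together with neuronal traits such as a neurite cytoskeleton and calcium-triggered exocytosis. In the fetal gland chromaffin precursors still lie among cortical cells. The labels name the sorted cells adrenocortical, so transcripts of this network were measured in a sort whose label does not name their cell type.

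Slide 1 held 2 Star-/- and 2 wild-type arrays, slide 2 held 2 Star-/- arrays and 1 wild-type array, and slide 3 held 4 wild-type arrays. A level is the log2 signal of a probe relative to the 75th percentile of its array, and levels of different probes are not set against each other. Each array measured 19071 to 26416 of 41174 probes well above background, and precision is limited by how many arrays there were. The lowest level called above background was between −5.10 and −3.83 on the Star-/- arrays and between −4.84 and −3.18 on the wild-type arrays, the highest of all being on wild-type array 3, whose median correlation with the others, 0.877, was the lowest. The probe for Star, the deleted gene, was between 1.58 and 3.27 on Star-/- arrays and between 3.21 and 7.86 on wild-type arrays, with a limma adjusted p of 0.0559. Its position relative to the deleted part of the gene is not known here, so it gives a limited check of the labels. Markers of steroid-producing cortical cells were present: 8 of 9 were tested, and their mean level was between 1.15 and 2.53 on Star-/- arrays and between 1.04 and 4.51 on wild-type arrays.

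Of the 8 genes, 6 had a brightest probe well above background on 4 arrays or more, namely Phox2a, Gata3, Isl1, Stmn2, Tubb3 and Syt1, and Hand2 and Snap25 were not. Transcripts of the network were thus detected in the sorts of both genotypes. None of the 6 passed the test between genotypes (limma, below), and for each the range over the wild-type sorts exceeded the fitted difference between genotypes. Over the 7 wild-type sorts the levels of all 6, each read on its brightest probe, followed those of Th and Dbh. Within slides r was between 0.720 and 0.998. There 0 of the 6 passed by exact permutation after adjustment, where 48 arrangements allow no p under 0.0208.

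**Figure D1:**
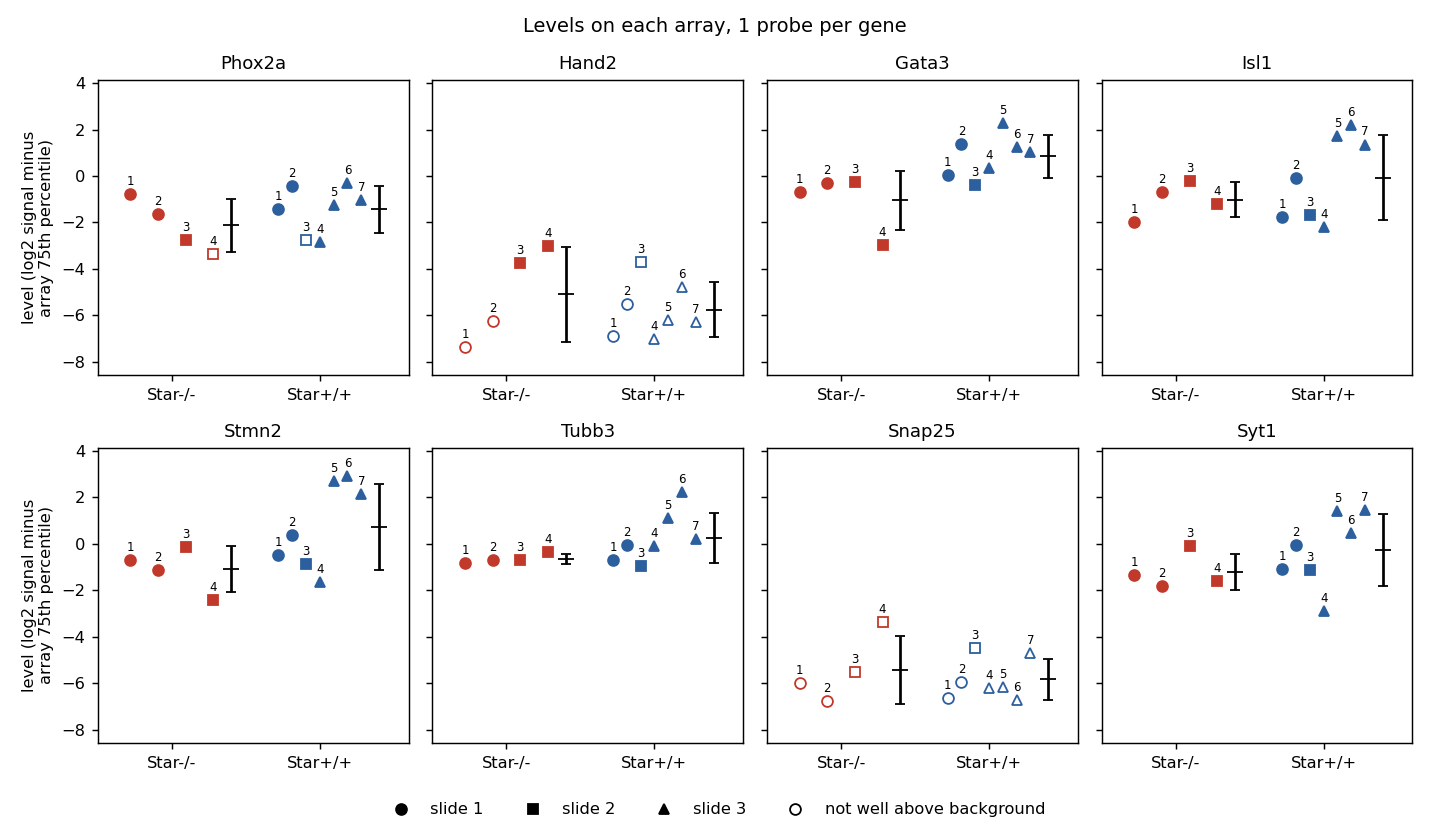
Level of each gene on each array (y axis, log2 signal minus the array's 75th percentile), with the 4 Star-/- arrays left and the 7 Star+/+ arrays right. Panels show the brightest probe of a gene, except for Hand2. Its panel shows the probe that was above background on Star-/- arrays 3 and 4, and its brightest probe was not above background on any array. Numbers are replicate numbers, shapes are slides, open symbols are signals not well above background, and bars are the mean and SD over a genotype. Isl1 and Stmn2 are highest on wild-type arrays 5, 6 and 7, and Snap25 has open symbols throughout.

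Among the transcription factors, Phox2a, a homeodomain protein that activates Th and Dbh, had levels of −0.78, −1.62, −2.74 and −3.34 on Star-/- arrays 1 to 4, against −1.44, −0.42, −2.77, −2.84, −1.26, −0.30 and −1.01 on wild-type arrays 1 to 7. The genotypes overlapped over nearly their whole ranges. Star-/- array 4 and wild-type array 3, both on slide 2, were not well above background for Phox2a. Isl1, a LIM homeodomain factor of sympathetic and chromaffin precursors, had levels of −1.996, −0.70, −0.22 and −1.19 on Star-/- arrays 1 to 4, against −1.78, −0.083, −1.66, −2.21, 1.73, 2.18 and 1.36 on wild-type arrays 1 to 7. Wild-type arrays 5, 6 and 7 lay above every Star-/- array, and wild-type array 4, from the same slide, lay below every Star-/- array. The Isl1 probe was printed as 10 spots per array, and the SD between them ran from 0.014 to 0.161, far below the range of 4.39 between arrays.

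Gata3, a zinc finger factor needed for catecholamine synthesis in sympathoadrenal cells, had levels of −0.69, −0.28, −0.27 and −2.96 on Star-/- arrays 1 to 4, against 0.025, 1.39, −0.38, 0.35, 2.30, 1.24 and 1.01 on wild-type arrays 1 to 7. Wild-type array 3 was the single wild-type array that reached into the Star-/- range, and Star-/- array 4 lay far below the others. Hand2, a basic helix-loop-helix factor of the same network, had a pair of probes. One was not well above background on any array. The other was above background on Star-/- arrays 3 and 4, at −3.75 and −3.02, and on no wild-type array, where it was between −6.99 and −3.71. Both of those Star-/- arrays are on slide 2, and the highest wild-type value was on the wild-type array of that slide, so no fold change is given.

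Stmn2 and Tubb3 belong to the neuronal cytoskeleton. Stmn2, a stathmin that destabilises microtubules in growing neurites, had levels of −0.68, −1.12, −0.11 and −2.40 on Star-/- arrays 1 to 4, against −0.46, 0.38, −0.88, −1.65, 2.70, 2.91 and 2.16 on wild-type arrays 1 to 7. As with Isl1, wild-type arrays 5, 6 and 7 stood above all others and wild-type array 4 was the lowest of the wild-type arrays. Tubb3, the beta tubulin typical of neurons, had levels of −0.82, −0.69, −0.71 and −0.33 on Star-/- arrays 1 to 4, against −0.70, −0.032, −0.95, −0.11, 1.09, 2.23 and 0.23 on wild-type arrays 1 to 7. The Star-/- arrays were close together, with an SD of 0.21 (n = 4), against an SD of 1.09 in wild-type arrays (n = 7). Spots of the Tubb3 probe, 10 per array, had SDs of 0.026 to 0.127.

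Snap25 and Syt1 act in vesicle fusion. Snap25, a SNARE protein of the plasma membrane, had 1 probe, which was not well above background on any of the 11 arrays, so its level was not measurable here. Syt1, the calcium sensor of fast vesicle release, had 5 probes. On the brightest, A_52_P103929, levels were −1.33, −1.80, −0.079 and −1.59 on Star-/- arrays 1 to 4, against −1.10, −0.028, −1.13, −2.87, 1.41, 0.45 and 1.46 on wild-type arrays 1 to 7. Wild-type arrays 5, 6 and 7 were again above every Star-/- array, and wild-type array 4 was below every other array.

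The Syt1 probes did not agree among themselves. A_51_P297900 had the same order of wild-type array 4 below arrays 5, 6 and 7, with levels between −3.63 and −1.95 on Star-/- arrays and between −4.69 and −0.30 on wild-type arrays. A_52_P94201 was above background on all 4 Star-/- arrays, at −3.90, −1.73, −1.50 and −1.28, and on 4 of 7 wild-type arrays. It was not above background on wild-type arrays 4, 5 and 6, at −6.48, −4.48 and −6.21, but was at −0.52 on wild-type array 7. Thus arrays 5 and 6 were bright on the first probe and dim on this one. The remaining A_51_P298873 and A_52_P679799 were not above background on any array. The part of the transcript each probe reads is not known here, and which probe follows the gene was not tested.

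**Figure D2:**
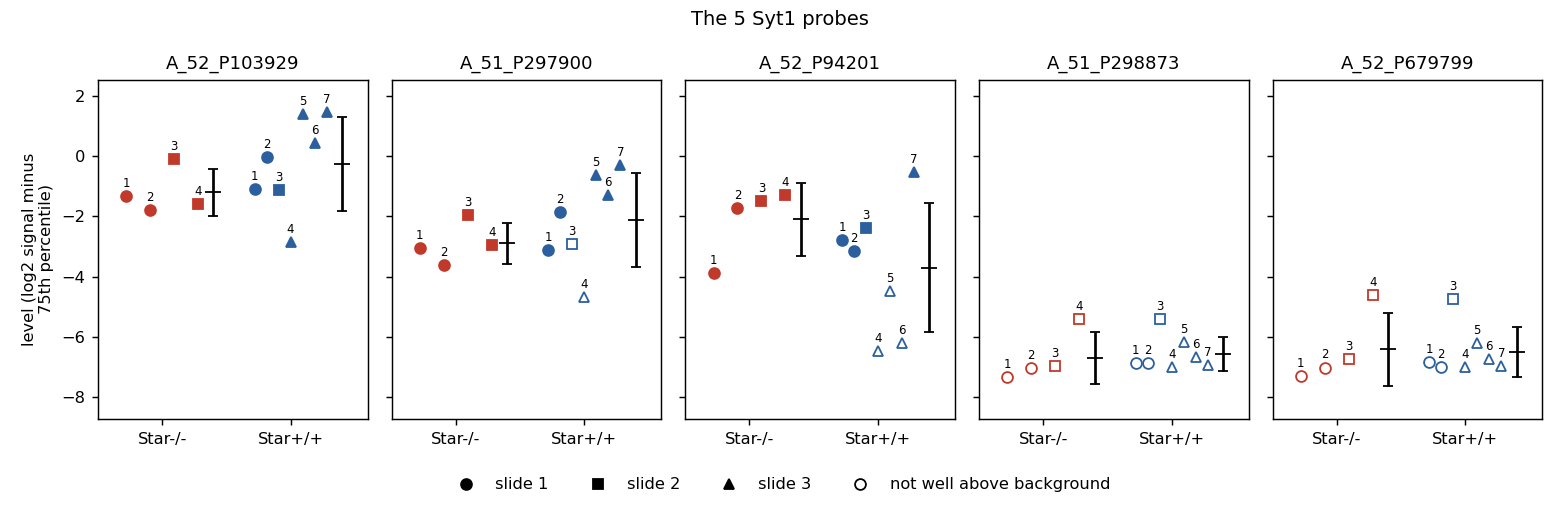
Levels of the 5 Syt1 probes on each array (y axis, log2 signal minus the array's 75th percentile), with Star-/- left and Star+/+ right in each panel. Numbers are replicate numbers, shapes are slides, open symbols are not well above background, and bars are mean and SD. The first and second panels share their pattern, the third differs on wild-type arrays 5 and 6, and the last pair of panels stays at background.

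Promoter sequences of the 250 bases before and 50 after each transcription start were at hand for 6 of the 8 genes, from RefSeq on GRCm38.p6. They are shown for Isl1 and Phox2a, 2 homeodomain factors of the network, and for Syt1, the one vesicle fusion gene of the 8 with a measured level. Over the 7 wild-type arrays r was 0.897 between Isl1 and Syt1, 0.760 between Phox2a and Isl1 and 0.720 between Phox2a and Syt1, and over all 11 arrays 0.874, 0.529 and 0.538 for the same pairs. Capitals mark TAAT on either strand, the core that many homeodomain proteins bind. The windows are chr13:116309639-116309938 on the minus strand for Isl1, chr7:101818063-101818362 on the plus strand for Phox2a, and chr10:109010926-109011225 and chr10:109009062-109009361 on the minus strand for the 2 starts of Syt1.
Isl1: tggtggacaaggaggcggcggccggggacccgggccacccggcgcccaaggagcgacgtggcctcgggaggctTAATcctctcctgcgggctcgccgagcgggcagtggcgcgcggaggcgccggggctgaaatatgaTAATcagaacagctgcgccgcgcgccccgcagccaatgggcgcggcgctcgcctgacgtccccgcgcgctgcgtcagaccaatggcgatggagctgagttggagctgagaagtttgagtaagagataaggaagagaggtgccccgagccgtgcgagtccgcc
Phox2a: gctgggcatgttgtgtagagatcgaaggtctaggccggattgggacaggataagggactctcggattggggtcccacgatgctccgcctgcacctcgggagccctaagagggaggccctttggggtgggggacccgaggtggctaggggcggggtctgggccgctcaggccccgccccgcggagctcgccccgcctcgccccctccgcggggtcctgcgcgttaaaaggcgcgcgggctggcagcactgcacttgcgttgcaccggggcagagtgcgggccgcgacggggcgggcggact
Syt1 first start: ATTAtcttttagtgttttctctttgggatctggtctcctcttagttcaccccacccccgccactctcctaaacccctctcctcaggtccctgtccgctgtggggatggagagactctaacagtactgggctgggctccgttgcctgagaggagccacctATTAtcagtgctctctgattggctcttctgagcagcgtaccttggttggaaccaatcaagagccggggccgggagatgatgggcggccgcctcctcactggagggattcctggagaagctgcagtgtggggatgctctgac
Syt1 second start: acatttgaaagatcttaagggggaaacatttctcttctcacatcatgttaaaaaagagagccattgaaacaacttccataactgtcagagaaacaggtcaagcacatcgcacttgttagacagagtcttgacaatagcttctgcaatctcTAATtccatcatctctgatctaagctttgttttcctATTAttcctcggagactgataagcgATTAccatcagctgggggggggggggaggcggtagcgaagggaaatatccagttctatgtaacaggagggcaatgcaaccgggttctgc
TAAT occurs 2 times in the Isl1 window, 0 times in that of Phox2a, and 2 and 3 times in those of Syt1. Of all 32851 promoter windows of this length, 58.0% hold at least 1 match, so a match is common. Among the other windows it occurs 5 times for Hand2 and 0 times for Gata3 and for Tubb3. The E-box CANNTG, read the same on both strands, occurs 1 time each for Isl1 and Phox2a and 0 and 3 times for Syt1, and is present in 72.3% of all windows. The bases G and C make up 69.0% of the Isl1 window and 71.3% of that of Phox2a, against 56.7% and 44.0% for Syt1. Whether any protein binds there was not measured.

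The comparison of genotypes was made with slide as a block, so that each fitted difference rests on the 4 Star-/- and 3 wild-type arrays of slides 1 and 2. Of the 6 genes tested, 0 passed a limma adjusted p of 0.05 over all 20741 genes and unnamed probes, and 0 had an unadjusted p under 0.05, against 18.5% of all genes. Over all genes, 0.834% passed the adjusted threshold, and with array weights, where again 0 of the 6 passed, 9.25% did. The genotypes overlapped for all 6, while they did not overlap for 7.36% of all genes tested. Counts of 0 among 6 genes are near these shares. The median difference over the 6 was −0.38, beside −0.16 over all genes tested.

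Gata3 had the largest difference of the 6, −1.21 ± 0.69 on the log2 scale (SE, 4 against 3 arrays; limma adjusted p = 0.374). Its mean was −1.05 ± 1.29 on Star-/- arrays and 0.85 ± 0.91 on wild-type arrays (SD, n = 4 and 7). Slide 1 alone gave −1.19 and slide 2 alone −1.23, and the difference was −0.76 without Star-/- array 4. Slide 2 held 1 wild-type array, labelled female, at −0.38. Star-/- array 3 lay above it at −0.27 and Star-/- array 4 below it at −2.96, so the slide 2 value rests on Star-/- array 4. The 95% interval of the fitted Gata3 difference ran from −2.75 to 0.33, which includes 0. On slide 1, where all arrays were labelled male, both Star-/- arrays lay below both wild-type arrays. Sex changed together with genotype on slide 2, so for every gene the slide 2 difference cannot separate genotype from sex. The fitted differences draw on slide 2 as well.

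For Stmn2 the difference was −0.67 ± 1.05 (limma adjusted p = 0.765), with −0.86 within slide 1 and −0.38 within slide 2. Syt1 differed by −0.49 ± 0.99 (limma adjusted p = 0.824), and the sign was not shared, at −1.004 within slide 1 and 0.29 within slide 2. Phox2a differed by −0.27 ± 0.59 (limma adjusted p = 0.837), and both slides gave −0.27. The intervals were wide, from −3.02 to 1.68 for Stmn2, from −2.71 to 1.73 for Syt1 and from −1.58 to 1.04 for Phox2a. Single arrays moved these values by more than 1.5 times. With each array left out in turn, Phox2a ran from −0.52 without wild-type array 1 to −0.014 without wild-type array 2, Stmn2 from −1.08 without Star-/- array 3 to −0.32 without Star-/- array 4, and Syt1 from −1.004 without wild-type array 3 to −0.089 without wild-type array 2.

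Isl1 and Tubb3 had the smallest differences. Isl1 differed by 0.14 ± 1.01 (limma adjusted p = 0.958; 95% interval −2.13 to 2.40), with −0.42 within slide 1 and 0.96 within slide 2. Tubb3 differed by −0.060 ± 0.55 (limma adjusted p = 0.966; 95% interval −1.29 to 1.17), with −0.39 within slide 1 and 0.43 within slide 2. The sign of both therefore depended on the slide, and on slide 2 genotype could not be separated from sex. With every probe tested on its own, 0 of the 8 member probes above background on at least 4 arrays passed, against 0.576% of all 25884 probes, and the differences were −0.33 ± 0.97 for the Syt1 probe A_51_P297900 and 0.49 ± 1.27 for A_52_P94201.

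**Figure D3:**
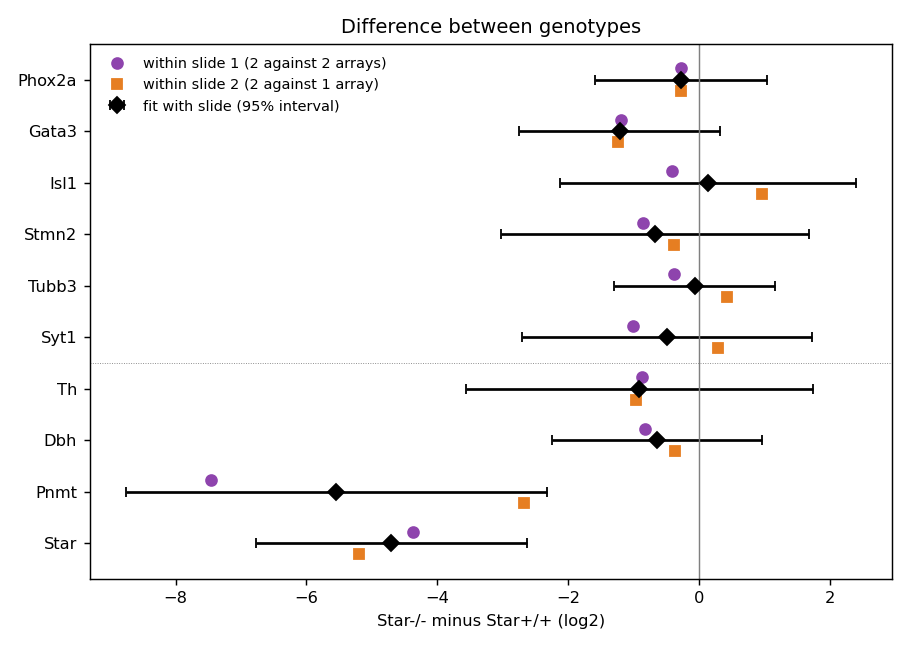
Star-/- minus Star+/+ difference (x axis, log2) for the 6 genes tested, and below the dotted line for Th, Dbh, Pnmt and Star. Diamonds with bars are the fit with slide and its 95% interval, circles the difference within slide 1 and squares that within slide 2. All 6 intervals of the upper genes include 0, and those of Pnmt and Star do not.

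Enzymes of catecholamine synthesis were set beside these genes. Th, which makes the dopamine precursor, had levels of 0.70, 0.050, −0.52 and −3.47 on Star-/- arrays 1 to 4, against 0.56, 1.94, −1.03, −1.11, 3.42, 3.78 and 3.40 on wild-type arrays 1 to 7. Dbh, which makes noradrenaline, had levels between −3.64 and −1.33 on Star-/- arrays and between −2.76 and 0.022 on wild-type arrays. Both overlapped between genotypes, with differences of −0.91 ± 1.19 for Th (limma adjusted p = 0.710) and −0.64 ± 0.72 for Dbh (limma adjusted p = 0.658). Pnmt, which turns noradrenaline into adrenaline, did not overlap: it was between −4.16 and −3.44 on Star-/- arrays and between −1.04 and 5.34 on wild-type arrays. Its difference of −5.54 ± 1.44 missed the threshold (limma adjusted p = 0.107). The difference of Pnmt from the transcription factors was not tested. In bulk RNA of a sort, fewer cells of a type and less RNA per cell cannot be told apart.

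How the genes varied between wild-type sorts was then examined, with the mean level of Th and Dbh as a measure that does not use them. That mean was −0.32, −1.10, −1.56 and −3.55 on Star-/- arrays 1 to 4, and −0.67, 0.95, −1.89, −1.87, 1.62, 1.90 and 1.45 on wild-type arrays 1 to 7. Over the 7 wild-type arrays all 6 genes, each on its brightest probe, were higher where it was higher. For Syt1 the other probes were not related to Th and Dbh here. A_51_P297900 had the order of the brightest probe on slide 3. A_52_P94201 was not above background on wild-type arrays 5 and 6, at −4.48 and −6.21, so the Syt1 relation holds for the brightest probe. Pearson's r was 0.951 for Isl1, 0.946 for Stmn2, 0.902 for Phox2a, 0.894 for Syt1, 0.844 for Gata3 and 0.773 for Tubb3. Exact two-sided permutation p-values, adjusted over the 6 relations, were 0.0119 for Isl1, Stmn2, Phox2a and Syt1, 0.024 for Gata3 and 0.0361 for Tubb3 (raw p from 0.00317 to 0.0361). Spearman's rho was 0.964 for Stmn2 and Tubb3, 0.893 for Isl1, 0.821 for Phox2a and Syt1 and 0.786 for Gata3, with exact permutation p-values adjusted over the 6 from 0.00833 to 0.048. Of 20728 genes and unnamed probes with a value on these arrays, Th and Dbh apart, 6.11% had an r at least as high as that of Tubb3 and 0.95% one at least as high as the median of the 6, 0.898.

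**Figure D4:**
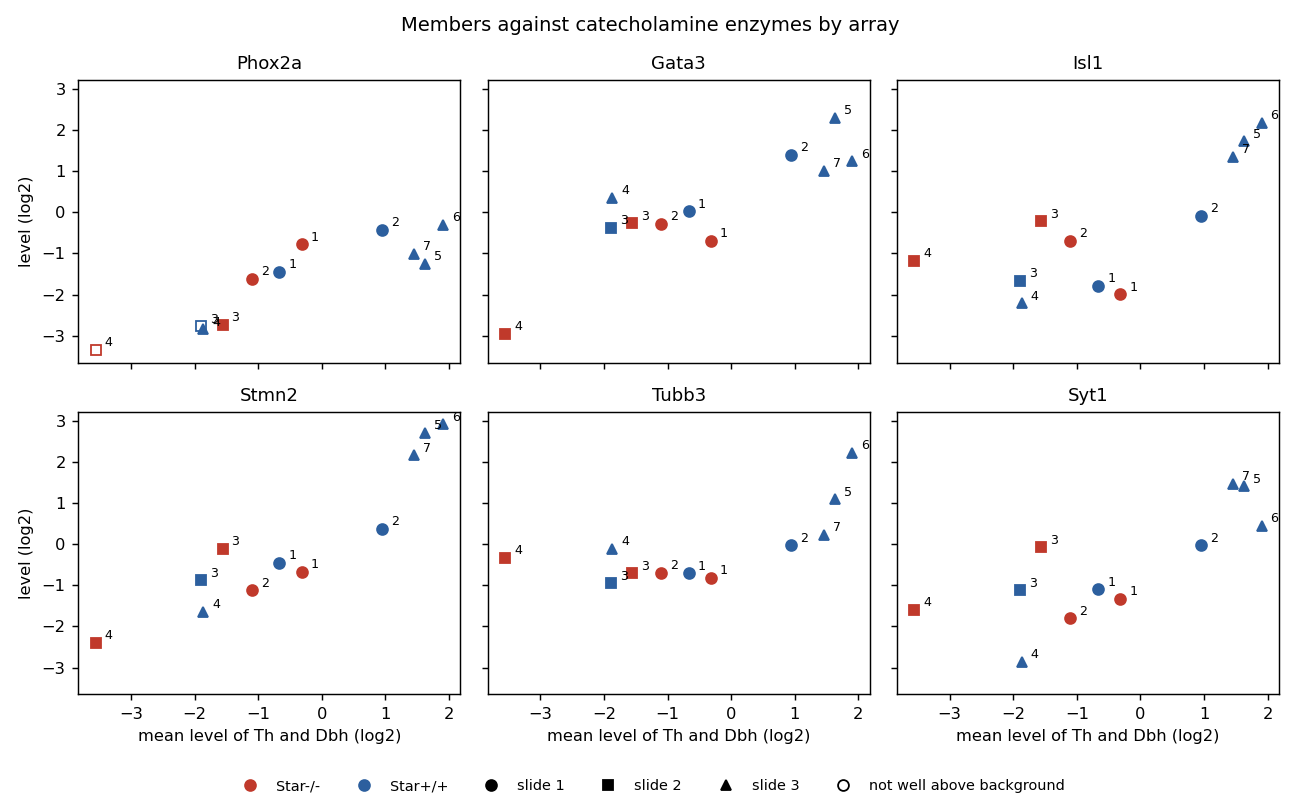
Level of each of the 6 genes on its brightest probe (y axis, log2 signal minus the array's 75th percentile) against the mean level of Th and Dbh (x axis, same scale) on 4 Star-/- arrays (red) and 7 Star+/+ arrays (blue). Numbers are replicate numbers, shapes are slides and open symbols are not well above background. Wild-type arrays 5, 6 and 7 lie at the upper right in the Isl1, Stmn2 and Syt1 panels, and wild-type array 4 of the same slide lies near the lower left.

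The wild-type values were unevenly spread, with the widest gap, 1.61 of a range of 3.80, between arrays 1 and 2. Without the arrays farthest from the median, 3 and 4, r was between 0.777 and 0.978 over 5 arrays for Isl1, Stmn2, Syt1, Tubb3 and Gata3, but 0.550 for Phox2a, whose relation therefore rests on those arrays. Without wild-type array 2, r was between 0.816 and 0.985, and the relation passed for 2 of the 6, Phox2a and Stmn2 (exact permutation over 6 arrays). Wild-type arrays 5, 6 and 7, the highest in Th and Dbh, were all on slide 3. With slide as a term, added after the data were seen, r of the deviations from the slide means was 0.998 for Isl1, 0.979 for Stmn2, 0.958 for Phox2a, 0.940 for Syt1, 0.754 for Gata3 and 0.720 for Tubb3. By exact permutation within slides, with 48 arrangements and 0.0208 as the smallest p they can give, 0 of the 6 passed after adjustment over them. The adjusted p was 0.0625 for Isl1 and Stmn2, 0.0833 for Phox2a and 0.188 for the others by the same exact test. On slide 1 wild-type array 2 was above array 1 for 6 of 6 genes, and on slide 3 array 4 was the lowest for 6 of 6. Arrays 5, 6 and 7 exceeded array 4 on average by 4.24 for Stmn2, 3.97 for Syt1 and for Isl1, 1.98 for Phox2a, 1.29 for Tubb3 and 1.17 for Gata3. Over all 11 arrays r was 0.928 for Stmn2, 0.892 for Phox2a, 0.872 for Gata3, 0.777 for Syt1, 0.771 for Isl1 and 0.691 for Tubb3 (permutation p adjusted over the 6 from 0.0003 to 0.0136). Star-/- array 4, with the lowest Th and Dbh of all, was also lowest of all for Gata3, Stmn2 and Phox2a but not for Isl1, Tubb3 or Syt1.

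The adrenocortical markers differed between the same wild-type arrays. Their mean level over 8 tested genes was 1.04, 1.16 and 1.67 on wild-type arrays 5, 6 and 7, and 3.77, 4.31, 3.25 and 4.51 on wild-type arrays 1 to 4. The 3 arrays that were high in Isl1, Stmn2 and the brightest Syt1 probe were thus the lowest in these markers. Macrophage markers differed between the genotypes. The mean level of 7 tested markers of 8 listed was between 4.85 and 5.61 on Star-/- arrays and between −0.26 and 2.53 on wild-type arrays. The genotypes did not overlap for 7 of 7, beside 7.36% of all genes tested. All 7 had higher fitted means in Star-/- arrays. Of the 7, 2 passed the adjusted threshold, Trem2 at 3.92 ± 0.50 (limma adjusted p = 0.0131) and Gpnmb at 7.93 ± 0.79 (limma adjusted p = 0.0035). Over all genes tested 0.603% passed as higher in Star-/- arrays. The lists were chosen with earlier results of these data known. The 8 tested adrenocortical markers all had lower fitted means in Star-/- arrays, with a median difference of −1.18. Of these 1 passed, Nr0b1, at −5.58 ± 0.89 (limma adjusted p = 0.0275), beside 0.231% of all genes tested that passed as lower. Of 5 endothelial markers 0 passed. Schwann cell precursor markers, 5 tested of 8 listed, averaged between 1.23 and 1.51 on Star-/- arrays and between −1.37 and 2.69 on wild-type arrays, and 0 passed. Counts of 0 in these lists are near the 0.834% of all genes that passed. All 5 tested Schwann cell precursor markers had higher fitted means in Star-/- arrays, with a median difference of 1.12. Wild-type arrays 5, 6 and 7 were the highest in them, at 2.69, 2.30 and 2.52. The part of any of these cell types in the levels of the 8 genes was not tested.

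Other genes of the lineage were compared between genotypes. Of 8 further sympathoadrenal transcription factors, 7 were tested and 0 passed in either direction, against 0.603% of all genes higher and 0.231% lower. Tfap2b, an AP-2 factor of the neural crest, was at −0.87 ± 0.45 (limma adjusted p = 0.331). Gata2, a relative of Gata3, was at −1.22 ± 0.99 (limma adjusted p = 0.531). Of 17 further neuronal cytoskeleton and RNA-binding genes, 16 were tested and 0 passed, near the 0.834% of all genes that passed. The one nearest was Mapt, the microtubule protein tau, at −1.98 ± 0.39 (limma adjusted p = 0.0561), with −1.94 within slide 1 and −2.04 within slide 2. It was between 1.46 and 3.43 on Star-/- arrays and between 2.51 and 4.99 on wild-type arrays. Of the 16 genes tested in this list, 9 had higher and 7 lower fitted means in Star-/- arrays. Their median difference was 0.011, beside −0.16 over all genes.

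Of 18 further exocytosis genes, 14 were tested and 0 passed. That count, and those of 0 below, are near the 0.834% of all genes that passed. An unadjusted p under 0.05 was found for 3 of the 14, a share near the 18.5% of all genes. Snap91, a clathrin assembly protein, was at −2.06 ± 0.66 (limma adjusted p = 0.157), and Rims2, a scaffold of the release site, at −2.61 ± 0.93 (limma adjusted p = 0.192). Cplx1, a complexin that binds the SNARE complex, went the other way at 2.40 ± 1.03 (limma adjusted p = 0.258). The list's median was −0.85, and 11 of 14 were lower, beside a median of −0.16 over all genes. Among 7 catecholamine enzymes and transporters and 6 granins and neuropeptides, all tested, 0 passed, all 13 had lower fitted means in Star-/- arrays, and the medians were −0.91 and −2.02. Scg2, a secretogranin of dense-core vesicles, was at −2.59 ± 0.91 (limma adjusted p = 0.189). Chga, the vesicle protein chromogranin A, was between 0.34 and 5.30 on Star-/- arrays and between 4.80 and 9.43 on wild-type arrays.

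Likeness over the 11 arrays was measured as Pearson's r with the mean of the 6 genes, each centred on its own mean, among 13732 named genes that are not members. The highest were Mapk10 with 0.974, Scg3 with 0.971, Rab3b with 0.970, Uchl1 with 0.969 and Dbndd1 with 0.969. Th ranked 10 with 0.950, Gata2 24 with 0.935 and Dbh 64 with 0.911. The gene most like each member was Dbh for Phox2a (0.918), Chga for Gata3 (0.939), Ctnna2 for Isl1 (0.961), Scg3 for Stmn2 (0.987), Gdap1l1 for Tubb3 (0.950) and Svop for Syt1 (0.944). These points share arrays, scaling and slides, and the values describe these 11 arrays. Among the 6 genes themselves r over the 7 wild-type arrays was highest between Isl1 and Stmn2, 0.988, and lowest between Tubb3 and Syt1, 0.535.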

How the data were processed

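RNA of eGFP-sorted adrenal cells was labelled with Cy3 as cRNA, per the labels' protocols. The deposited scanner files hold spot intensity from Agilent Feature Extraction, version 10.1.1.1 for slides 1 and 2 and 10.5.1.1 for slide 3, with its background subtraction, per the file headers, while the submitters' processing notes name 10.5.1.1. A deposited table of the whole series gives the authors' log2 values. Scaling each array to its 75th percentile and subtracting the median of every probe gave those values to within 0.01 for 99.8% of probes. Other processed columns of the deposited files used here are flags for outlier, saturated and well-above-background spots.

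Of 45018 spots, 43379 were not controls. Between 77 and 164 outlier spots per array were left out, and 0 probes were saturated. Spots of a probe were averaged as log2, and a probe counted as above background where most of its spots did. For Isl1 13 and for Tubb3 7 of the spots over all arrays were left out, and no array was. Probes were named through RefSeq accessions (assembly GRCm38.p6, names only), the newest of 3 revisions of the array design first, since 4695 spots changed accession between revisions: 25377 of 41174 probes had a symbol. Of 94 listed genes 89 were on the array. A gene was its brightest probe, tested if above background on at least 4 arrays. limma 3.58.1 in R 4.3.3 (lmFit, eBayes) fitted genotype and slide with 7 residual degrees of freedom, two-sided, with Benjamini-Hochberg adjustment over 20741 genes and probes. Slide 3 enters the spread alone. Intervals are 95% from the moderated fit, and the steps were tested on simulated data. Relations were tested by exact permutation over 7 arrays and 100000 resamples over 11, in Python 3.11.15 with scipy 1.17.1. Overlap was judged over the arrays with a value. Alternatives covered slide, sex, replicate number, background (normexp, offset 50, on median spot signals), scaling, filters, probes, the series table, weights, the variance prior, outliers and each array left out.

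The members and lists were chosen with earlier results of these data known. Genes named are the members, Star, Th, Dbh, Pnmt, up to 4 genes with the smallest p in each list, and the genes most alike by r. The ranks by likeness of Th, Gata2 and Dbh were added after their values were seen. Some genes of the lists are not reported here by name. Each array came from a separate mouse, per the labels.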

Additional observations from a re-analysis of the deposited data

Results flagged for a closer look

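Within a genotype, 8 member probes gave 16 groups of arrays, and 2 of them held an array that stood apart by Dixon's criterion at 95%, where chance alone is known to mark about 1 group in 20. Star-/- array 4 had a Gata3 level of −2.96, and the next lowest Star-/- array was at −0.69, a gap of 0.845 of the range of 4 arrays. On the Syt1 probe A_52_P94201, Star-/- array 1 was at −3.90 and the next lowest at −1.73, a gap of 0.831 of the range.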

How the results depend on the processing

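All 6 member genes stayed without a call under every alternative in which they were tested, and 0 passed whichever array was left out. The number of all genes that passed, 173, was 594 without slide, 469 with slide as a random block, 0 on slide 1 alone and 0 on slide 2 alone (limma; 3857 and 7489 at an unadjusted p under 0.05), 28 with sex as a term, 78 with sex and without wild-type array 4, 11 on male arrays alone, 640 with normexp, 92 with median scaling, 403 among genes detected on all 11 and 1918 with array weights (9.25% of genes). It ran from 10 to 565 with each array left out, the lowest without wild-type array 3 and the highest without wild-type array 4. With the replicate block it was 0 (limma; 3161 at an unadjusted p under 0.05), which left 2 residual degrees of freedom. The difference of Star passed with a random block (−3.99), sex and without wild-type array 4 (−4.93), normexp (−4.55), median scaling (−4.66), genes detected on all arrays (−4.70), array weights (−4.66) and another variance prior (−4.70), and ran from −5.08 to −4.37 with each array left out, passing without wild-type array 4 or 6. Signs turned for Isl1, at −0.96 without slide, −0.44 with a random block, −0.42 on slide 1 alone and on male arrays alone, −0.26 with sex, −0.090 with normexp and −0.67 with array weights. They turned for Tubb3, at 0.43 on slide 2 alone, 0.047 with sex and 0.18 with sex and without wild-type array 4, and for Syt1, at 0.29 on slide 2 alone. With each array left out Isl1 ran from −0.42 to 0.70 and Tubb3 from −0.39 to 0.19. Phox2a, Gata3 and Stmn2 kept their sign throughout. The median over all genes was −0.29 with normexp, against −0.16. The relation to Th and Dbh held for 6 of 6 genes, each on its brightest probe. It held for 3 with the mean of Chga and Chgb in place of Th and Dbh, and for 0 with slide as a term. With each wild-type array left out it held for 2 to 6, the lowest without array 2. Gata3 also lost its call without wild-type array 3, 5 or 6, where r was 0.767, 0.877 and 0.865, and Tubb3 without 1, 3 or 6, where r was 0.761, 0.692 and 0.768, beside 0.844 and 0.773 over 7 arrays; 6 arrays also allow fewer permutations. Deviations of same-numbered arrays from the genotype means correlated at 0.182, 0.218, −0.00775 and 0.185, highest with the own number for 2 of 4, so the numbers were not taken as pairs. The cause was not tested. Dim signal limits Phox2a on slide 2, and leaves Hand2 and Snap25 without a measured difference.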
